A study of Mus musculus with 4 samples.

Results

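The MS4A family was followed through mouse dendritic cell cultures given Wnt2 or the medium of CAFs. CAF commonly stands for cancer-associated fibroblast, a cell of the tumour stroma. The 8 genes examined are Ms4a4a, Ms4a4b, Ms4a4c, Ms4a6b, Ms4a6c, Ms4a6d, Ms4a7 and Ms4a8a, out of 13685 genes listed in at least 1 of the 3 deposited tables. They were matched by symbol, and the family was chosen by the values of Ms4a4c, which was among the highest genes with CAF medium and was lower when the medium had met an antibody to Wnt2. Both contrasts therefore entered the choice of members, and their values there are descriptions only. The contrast of Wnt2 with control medium was not used in the choice.

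MS4A proteins (membrane-spanning 4-domains, subfamily A) cross the membrane several times and sit beside immune receptors at the cell surface. The best known are CD20 of B cells, encoded by Ms4a1, and the beta chain of the high-affinity IgE receptor of mast cells, encoded by Ms4a2. Other members are found in monocytes, macrophages and T cells, and human MS4A4A is known from alternatively activated macrophages, where it associates with the fungal receptor Dectin-1.

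Bone marrow of C57BL/6 mice aged 4 weeks was cultured for 7 days with IL-4 and GM-CSF at 10 ng/ml each, which all groups share. The groups were control medium, Wnt2 (a secreted Wnt ligand), CAF.CM (the CAF culture medium) and CAF.CM that had been pre-incubated with a Wnt2 antibody. Each group has 1 column of read counts scaled to library size (CPM), called a library here. The series text speaks of triplicates, and the sources used here do not say whether a column pools several cultures. With 1 library per group no difference can be set against replicates, so no test was made and no p-value is given. Intervals are 95% exact ones and cover counting error only, not the spread between cultures.

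Reads in listed genes numbered 143071376 in control medium, 154399767 with Wnt2, 25225220 in CAF.CM and 22791494 with the antibody, so the last pair of libraries is less precise. Of the dendritic cell markers, Cd209a was listed in no table and Zbtb46 ran from 10.3 to 21.2 CPM. Itgax (CD11c) was 3.98-fold lower than control with Wnt2 and 18.6-fold lower with CAF.CM. The antigen presentation genes H2-Ab1 and Cd74 were 6.89-fold and 8.84-fold lower with Wnt2. With CAF.CM Cd74 was 2.19-fold lower, while H2-Ab1 was level with control (483 and 489 CPM). Of 12 dendritic cell markers listed with Wnt2, 4 were at least 2-fold lower (2.93% over all genes) and 0 higher (2.87%). With CAF.CM 3 of 10 were lower (8.69%) and 0 higher (6.68%). Irf4 had 91.2 CPM in control and 172 with CAF.CM, and Clec9a 16.5 in control and 29.5 with Wnt2. Macrophage and monocyte markers were also abundant, with Csf1r between 526 and 1087 CPM. Over the 12507 genes with a value in all 4 libraries, the share of reads from protein-coding genes lay between 72.4% (antibody) and 81.2% (control). That of the long noncoding Malat1 lay between 1.38% (control) and 3.86% (antibody). The part of depth, RNA composition and these markers in the results was not tested. In bulk RNA, fewer cells of a type and less RNA per cell cannot be told apart.

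All members lie in the Ms4a cluster on chromosome 19 (GENCODE M21, GRCm38), a stretch of 679 kb from Ms4a10 to Ms4a3 that holds 22 protein-coding genes, of which 10 were listed. On the forward strand stand Ms4a4a (11375523 to 11392790), Ms4a4c (11404770 to 11427246), Ms4a4b (11443553 to 11467055), Ms4a6c (11469366 to 11482192) and Ms4a6b (11516512 to 11531256). On the reverse strand stand Ms4a8a (11067471 to 11081102), Ms4a7 (11321039 to 11336146) and Ms4a6d (11586604 to 11604849). By coding sequence the closest members were Ms4a4b and Ms4a4c, identical at 91.7% of alignment columns. Ms4a6b matched Ms4a6d at 79.8% and Ms4a6c at 74.0% of columns when gaps count as mismatches. Over aligned bases alone these were 81.2% and 85.4%, so the order of the Ms4a6 pairs turned. Ms4a7 and Ms4a8a reached at most 51.1% and 47.2% with any other member when gaps count, and 65.9% and 66.9% over aligned bases.

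Upstream sequence was compared next. RefSeq (GRCm38.p6) gave promoter windows for 7 of the 8 members, and Ms4a6d had none, so its pairs could not be compared. Of 27 pairings of windows over the 250 bases before each start, Ms4a6b with Ms4a6c had the highest local alignment score and Ms4a4b with Ms4a4c the next. The first pair matched at 152 of 182 alignment columns (83.5%) and the second at 114 of 128 (89.1%), and every other pair aligned over at most 30 columns. The windows of these 4 genes are shown because the CAF.CM ratios of the Ms4a6 pair overlapped in their intervals and those of the Ms4a4 pair did not. The Ms4a4 pair had the higher percentage of identical columns, and any link between upstream likeness and these ratios was not tested. Capitals mark bases identical between the partners within their aligned stretch.
Ms4a4b, chr19:11443308-11443557, + strand: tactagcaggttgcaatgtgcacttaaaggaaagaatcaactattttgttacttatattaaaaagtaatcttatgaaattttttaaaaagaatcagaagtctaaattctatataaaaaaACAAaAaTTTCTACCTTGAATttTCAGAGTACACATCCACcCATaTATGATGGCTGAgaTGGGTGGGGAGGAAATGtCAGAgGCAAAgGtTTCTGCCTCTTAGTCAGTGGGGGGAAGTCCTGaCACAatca
Ms4a4c, chr19:11407411-11407660, + strand: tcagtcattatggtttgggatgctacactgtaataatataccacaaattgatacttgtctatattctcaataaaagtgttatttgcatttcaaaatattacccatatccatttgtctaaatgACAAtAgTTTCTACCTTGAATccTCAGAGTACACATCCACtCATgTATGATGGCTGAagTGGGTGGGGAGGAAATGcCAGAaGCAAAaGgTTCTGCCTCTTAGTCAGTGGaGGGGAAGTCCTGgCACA
Ms4a6b, chr19:11518309-11518558, + strand: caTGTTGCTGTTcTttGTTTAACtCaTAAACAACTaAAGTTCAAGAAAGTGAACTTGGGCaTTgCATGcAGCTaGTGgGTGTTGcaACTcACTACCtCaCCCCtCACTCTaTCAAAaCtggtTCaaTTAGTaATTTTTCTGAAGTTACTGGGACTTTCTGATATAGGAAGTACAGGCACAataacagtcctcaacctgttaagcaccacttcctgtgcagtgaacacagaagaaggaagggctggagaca
Ms4a6c, chr19:11469118-11469367, + strand: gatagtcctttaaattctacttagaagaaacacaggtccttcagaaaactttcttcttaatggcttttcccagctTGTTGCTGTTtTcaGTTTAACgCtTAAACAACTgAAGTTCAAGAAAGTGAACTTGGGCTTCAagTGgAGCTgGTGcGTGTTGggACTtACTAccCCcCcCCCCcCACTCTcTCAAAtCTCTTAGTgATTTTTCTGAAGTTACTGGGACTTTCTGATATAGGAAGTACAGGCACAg
The aligned stretch ends 5 bases before the start in Ms4a4b and 1 base before it in Ms4a4c. In the other pair it ends 71 bases before the start of Ms4a6b and 2 bases before that of Ms4a6c. The RefSeq starts used here lie downstream of the first GENCODE base in both Ms4a4c and Ms4a6b, inside the gene span.

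Motifs were searched on both strands of these windows. The core of the interferon-stimulated response element (GAAA, any 2 bases, GAAA), the Ets-IRF composite element (GGAA, any 2 bases, GAAA), the gamma-activated site (TTCNNNGAA), the TCF/LEF site (CTTTGAT) and a PU.1-type Ets site (GAGGAAGT) matched in 0 of the 8 windows of the members, Ms4a7 having 2. The AP-1 site (TGANTCA) matched in Ms4a8a, 244 to 238 bases before its start, and in 1 window of Ms4a7, 81 to 75 bases before its start. That start of Ms4a7 also lies downstream of the first GENCODE base, and the window is inside the gene span. Of all 32851 mouse promoter windows of this length, 2.98% held the interferon core, 2.30% the composite element, 7.02% the gamma-activated site, 3.21% the TCF/LEF site, 2.44% the Ets site and 6.75% the AP-1 site. A missing match says only that these letters are not in this window.

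**Figure D1:**
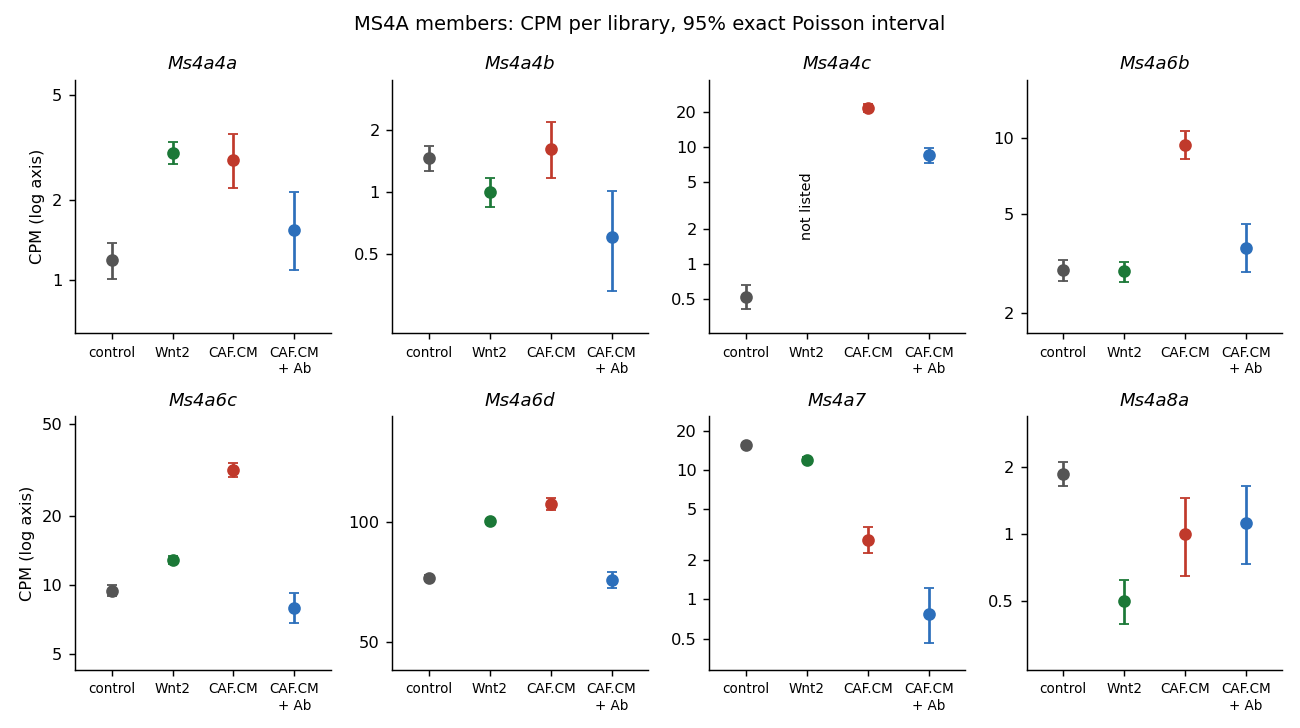
CPM of the 8 MS4A members (vertical, log axis, own range per gene) in the 4 libraries (horizontal); points are library values and bars 95% exact Poisson intervals. Ms4a4c, Ms4a6b, Ms4a6c and Ms4a6d were at their highest in CAF.CM, while Ms4a7 was highest in control medium; Ms4a4c was not listed with Wnt2.

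Among the Ms4a4 genes, Ms4a4c had the largest CAF.CM ratio of the members. It stood at 0.523 CPM in control medium (74 reads), 21.7 CPM with CAF.CM (565 reads) and 8.49 CPM with the antibody (197 reads). It was not listed in the Wnt2 table, where every listed gene reached 1.00 CPM in at least 1 of both libraries, and its Wnt2 level was not analysed here. The 3 measured libraries did not overlap in their counting intervals, and the antibody library lay between CAF.CM and control. The log2 ratio was 5.31 for CAF.CM against control (interval 5.02 to 5.74, 39.7-fold). This ratio entered the choice of the family, so its rank among all genes is not read. Listed genes of this pair also reached 1.00 CPM in at least 1 library, which Ms4a4c did only with CAF.CM. With the antibody it was at -1.35 against CAF.CM (interval -1.60 to -1.12), which still left it 15.6-fold above control (log2 ratio 3.96, interval 3.63 to 4.43).

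Ms4a4b, a gene best known from T cells, did not share this. It had 1.46 CPM in control medium, 0.996 with Wnt2, 1.61 in CAF.CM and 0.603 with the antibody. CAF.CM and control overlapped (log2 ratio 0.15, interval -0.37 to 0.63), and the antibody library was lowest, at -1.31 against CAF.CM (interval -2.41 to -0.52) on 14 against 42 reads. The close pair Ms4a4b and Ms4a4c thus had CAF.CM ratios whose intervals did not overlap, while their antibody ratios did overlap. Of the 31-base words of the longest Ms4a4c transcript, 17.6% also occur in other genes, mainly Ms4a4b, and 7.69% of those of Ms4a4b do, so some reads of either gene could have been assigned to the other.

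Ms4a4a, the mouse counterpart of the macrophage gene named above, had 1.19 CPM in control medium, 3.02 with Wnt2, 2.84 in CAF.CM and 1.55 with the antibody. It was the 1 listed member at least 2-fold higher with Wnt2, at a log2 ratio of 1.34 (interval 1.09 to 1.61). With CAF.CM it stood at 1.24 (interval 0.85 to 1.66). Wnt2 and CAF.CM did not differ beyond counting error (0.09, interval -0.27 to 0.46), nor did antibody and control (0.38, interval -0.18 to 0.91). None of the words of its transcript occurs in another gene.

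The Ms4a6 genes held most of the family's signal. Ms4a6d alone made up between 60.9% and 75.7% of the members' summed CPM. It had 72.4 CPM in control medium, 100.3 with Wnt2, 111 in CAF.CM and 71.5 with the antibody. The high libraries were CAF.CM (log2 ratio 0.61, interval 0.55 to 0.67) and Wnt2 (0.47, interval 0.44 to 0.51), both within 2-fold of control. With the antibody it was at -0.63 against CAF.CM (interval -0.72 to -0.54), and at -0.02 against control (interval -0.09 to 0.06), a sign that turned to 0.06 with other scalings.

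Ms4a6c had 9.42 CPM in control medium, 12.8 with Wnt2, 31.5 in CAF.CM and 7.93 with the antibody. Its CAF.CM value stood above the rest, at a log2 ratio of 1.74 (interval 1.62 to 1.87, 3.34-fold). The antibody value was 3.95-fold below it (log2 ratio -1.98, interval -2.23 to -1.76) and slightly below control (-0.25, interval -0.48 to -0.02). A transcript named BE692007 overlaps Ms4a6c on the other strand and had 3.79, 6.00, 8.26 and 2.28 CPM in the same order of libraries. The sources used here do not give whether counting used strand, so reads of the 2 genes may not be separate.

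Ms4a6b had 2.98 CPM in control medium, 2.94 with Wnt2, 9.41 in CAF.CM and 3.66 with the antibody. Here too CAF.CM stood alone, at 1.65 (interval 1.42 to 1.89), and the antibody library was at -1.34 against it, with an interval from -1.73 to the edge of 2-fold. The other 3 libraries lay together, with Wnt2 at -0.02 against control (interval -0.22 to 0.17) and the antibody at 0.29 against control (interval -0.06 to 0.64). The pair Ms4a6b and Ms4a6c thus had CAF.CM ratios with overlapping intervals. With Wnt2 their intervals did not overlap, since Ms4a6c was at 0.45 (interval 0.35 to 0.55), nor did they with the antibody against CAF.CM. Shared words made up 7.64% of the Ms4a6b transcript and 23.6% of the Ms4a6c transcript, most of them common to both genes, so their reads are partly uncertain.

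Ms4a7, a gene of macrophages and microglia, was lower with CAF.CM, unlike the other members called there. It had 15.5 CPM in control medium, 11.9 with Wnt2, 2.88 in CAF.CM and 0.776 with the antibody. The libraries did not overlap in their intervals, and the order from control down to the antibody was unlike that of any other member. CAF.CM was 5.33-fold lower than control (log2 ratio -2.41, interval -2.78 to -2.09). The antibody library was lower again, at -1.79 against CAF.CM (interval -2.72 to -1.14, 18 against 75 reads) and 19.3-fold below control (log2 ratio -4.27, interval -5.07 to -3.65). With Wnt2 it was at -0.37 (interval -0.46 to -0.28).

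Ms4a8a had 1.87 CPM in control medium, 0.501 with Wnt2, 0.999 in CAF.CM and 1.12 with the antibody. It was the 1 member at least 2-fold lower with Wnt2, at -1.87 (interval -2.29 to -1.53, 3.66-fold), and 86 of 13120 genes had a lower ratio. Its Wnt2 value was below the 1.00 CPM that listed genes reached in at least 1 library, so it could be listed only as lower. CAF.CM was at -0.89 against control (interval -1.55 to -0.32). The CAF.CM value of Ms4a8a was also below that level, so in this pair too it could be listed only as lower. The antibody did not differ from CAF.CM beyond counting error (0.15, interval -0.68 to 1.01, 26 reads in each). In that pair Ms4a8a was listed only through its antibody value, so it could only be higher.

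**Figure D2:**
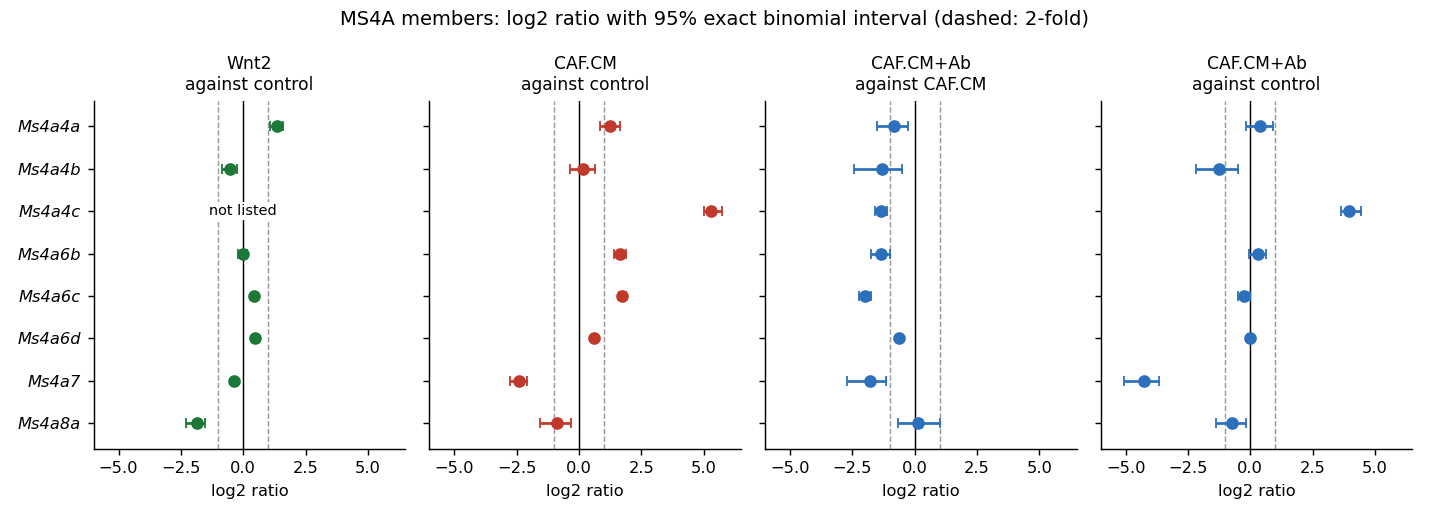
Log2 ratio (horizontal) of each member (vertical) in 4 comparisons; points are ratios with a prior count of 2, bars 95% exact conditional binomial intervals and dashed lines 2-fold. With CAF.CM the members spread from -2.41 (Ms4a7) to 5.31 (Ms4a4c). With the antibody against CAF.CM they spread from -1.98 (Ms4a6c) to 0.15 (Ms4a8a), where the median over all genes was -0.04. Ms4a4b and Ms4a7 were listed there only through their CAF.CM values, so they could only be lower. Ms4a8a was listed there only through its antibody value, so it could only be higher.

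Counts over the family take a ratio of at least 2-fold as higher or lower. With Wnt2, 7 members were listed, of which 1 was higher (background 2.87% of 13120 genes) and 1 lower (background 2.93%). Their median log2 ratio was -0.02, as over all genes (-0.02). The lower one, Ms4a8a, could be listed only through its control value. With CAF.CM, 4 of 8 were higher (background 6.68% of 13329 genes) and 1 lower (background 8.69%), with a median of 0.93 against -0.04 over all genes. With the antibody against CAF.CM, 0 of 8 were higher (background 1.02% of 13072 genes) and 5 lower (background 3.65%), with a median of -1.32 against -0.04. For 3 of those 5, Ms4a4c, Ms4a6c and Ms4a7, the whole counting interval lay beyond 2-fold. Listed genes reached 1.03 CPM in at least 1 library of this pair, which Ms4a4b and Ms4a7 did only in CAF.CM. These members could therefore be listed there only as lower. Ms4a8a reached that level only with the antibody, so it could be listed there only as higher. With the antibody against control, 1 of 8 was higher (background 8.10% of 12882 genes) and 2 lower (background 12.6%), with a median of -0.13 against -0.06. Nothing is read from the CAF.CM and antibody counts, since those contrasts chose the family, and comparisons that share a library are not independent of each other.

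Levels of different genes were compared per kb of annotated exon. In control medium Ms4a6d led with 41.7 CPM per kb, followed by Ms4a6c (4.59) and Ms4a7 (3.47), and Ms4a4c stood at 0.299. With CAF.CM Ms4a6d (63.8) and Ms4a6c (15.4) were followed by Ms4a4c at 12.4, and Ms4a7 stood at rank 6 with 0.647. With the antibody Ms4a4c reached rank 2 at 4.85 CPM per kb, above Ms4a6c at 3.87. Ms4a4b had between 0.0687 and 0.184 CPM per kb, but its annotated exons include 8780 bases against 4750 in its longest transcript, so its place in the order depends on the length used and is not read.

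**Figure D3:**
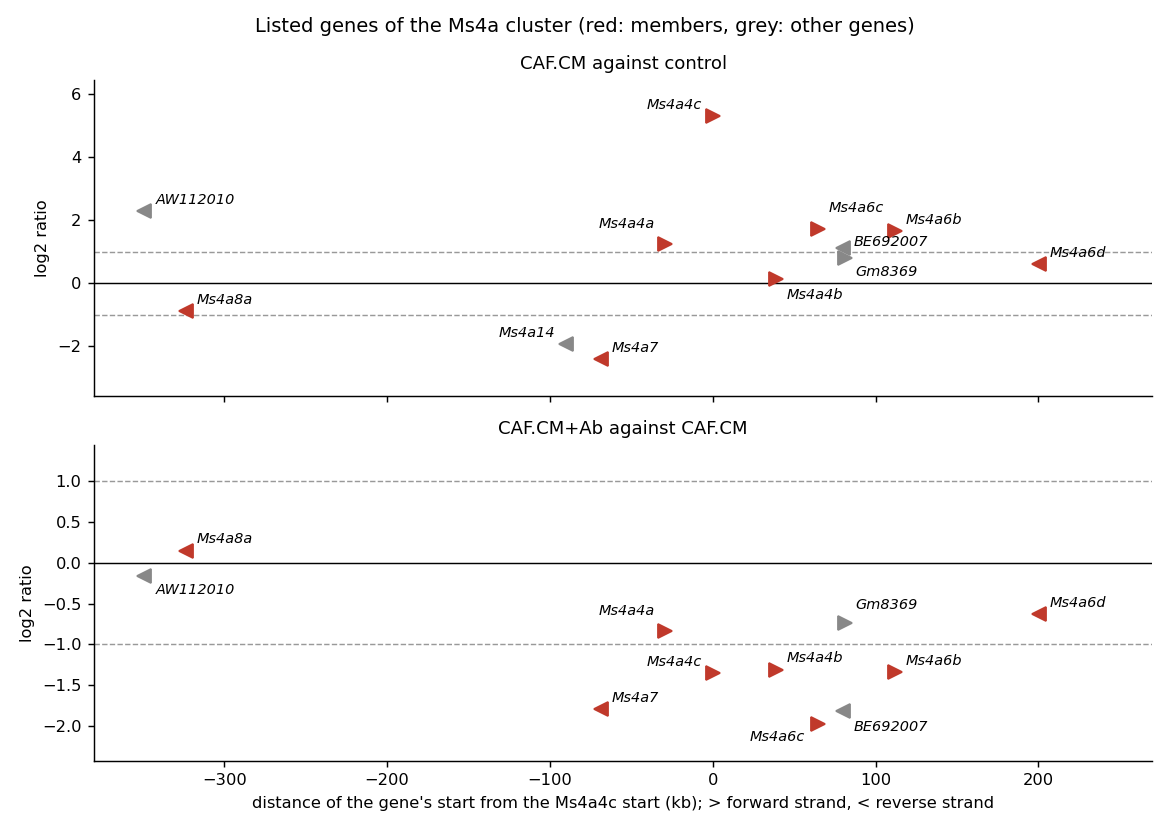
Log2 ratio (vertical) of the 12 listed genes of the Ms4a cluster by distance of their start from that of Ms4a4c (horizontal, kb), for CAF.CM against control (top) and antibody against CAF.CM (bottom); arrowheads give the strand. Genes 2-fold higher with CAF.CM lay between -29.2 and 111.7 kb, apart from the noncoding AW112010 at -349.0 kb.

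Along the cluster, the 4 members higher with CAF.CM lay on the forward strand within the stretch from Ms4a4a to Ms4a6b, whose starts are -29.2 and 111.7 kb from that of Ms4a4c. Ms4a4b lies among them and was at 0.15. BE692007, in the same stretch on the reverse strand, was at 1.12 with CAF.CM and -1.82 with the antibody. Its reads may not be separate from those of Ms4a6c. The protein-coding Gm8369, between Ms4a6c and Ms4a6b, had 0.805, 1.57, 1.42 and 0.819 CPM in control, Wnt2, CAF.CM and antibody, with log2 ratios of 0.80 for CAF.CM and -0.74 for the antibody. In both of these pairs it was listed only through its CAF.CM value, so its directions were fixed and are not read. Ms4a7 and its neighbour Ms4a14, both on the reverse strand, were lower with CAF.CM at -2.41 and -1.92, the latter on 7 reads (interval -3.35 to -0.93). Ms4a14 was listed in this pair only through its control value, so it could only be lower. At the far end the noncoding RNA AW112010 had 26.2, 34.4, 128 and 114 CPM, with 2.29 for CAF.CM and -0.16 for the antibody. It shared the CAF.CM direction of Ms4a4c without a comparable antibody difference.

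Of 12 other genes of the family or related to it, 9 were listed in no table, among them Ms4a1, Ms4a2, Ms4a3 and Ms4a4d. Tmem176a and Tmem176b, related membrane proteins of myeloid cells encoded side by side on another chromosome, were lower than control in all 3 treatments. Tmem176b had 77.9 CPM in control medium, 19.8 with Wnt2, 16.7 in CAF.CM and 8.19 with the antibody. Tmem176a had 47.0, 10.8, 10.8 and 5.26 CPM. Against control, Tmem176a was at a log2 ratio of -2.12 both with Wnt2 (interval -2.20 to -2.04) and with CAF.CM (interval -2.30 to -1.95). Against CAF.CM, the antibody ratios of Tmem176a and Tmem176b were -1.03 (interval -1.36 to -0.73) and -1.02 (interval -1.28 to -0.78). Ms4a14 had 1.08 CPM in control medium, 2.10 with Wnt2 and 0.269 with CAF.CM (7 reads), and was not listed with the antibody.

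Receptors and adaptors known beside MS4A proteins formed a list of 18 genes, 17 of them listed. With Wnt2, 2 were higher and 2 lower (2.87% and 2.93% over all genes). With CAF.CM, 2 were higher and 6 lower (6.68% and 8.69% over all genes). With the antibody against CAF.CM 0 of 17 lay beyond 2-fold, a share near that of all genes (1.02% higher and 3.65% lower). Clec7a, the Dectin-1 gene, had 816 CPM in control medium, 516 with Wnt2, 179.8 in CAF.CM and 97.5 with the antibody. It was at -2.18 with CAF.CM (interval -2.23 to -2.14), where Ms4a4a was at 1.24. The lectin gene Cd22 was at -2.06 and the tetraspanin gene Cd63 at -1.23, while the costimulatory receptor gene Cd40 was at 1.97 and at -0.10 with the antibody.

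Markers of other cell types were set beside the members. Of 14 macrophage and monocyte markers, all listed, 8 were lower (8.69% over all genes) and 2 higher (6.68%) with CAF.CM. With the antibody against CAF.CM 5 were lower (3.65% over all genes) and 0 higher. Their summed level was 29564 CPM in control medium, 21169.9 with Wnt2, 9663 in CAF.CM and 6702 with the antibody, of which the lysozyme gene Lyz2 alone made 25764, 18049.6, 6907 and 4425 CPM. These markers did not all go 1 way. Lower with CAF.CM were the complement gene C1qb (217, 58.0, 14.7 and 5.26 CPM) and the chemokine receptor gene Ccr2 (580.4, 315, 18.8 and 3.96 CPM). Higher were the endotoxin co-receptor gene Cd14 (405, 899, 988 and 959 CPM) and the monocyte gene Ly6c2 (18.7, 20.4, 88.6 and 53.4 CPM), while Adgre1, the F4/80 gene, had 349, 169, 404 and 331 CPM. Ms4a7 was lower in the libraries where C1qb and Ccr2 were lower, and their part in its values was not tested.

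With Wnt2, the contrast the choice did not use, 3 of 3 listed neutrophil markers were at least 2-fold higher (2.87% over all genes), and the other 7 of the list were in no table. The collagenase gene Mmp8 had 544, 1489, 140.1 and 99.3 CPM in control, Wnt2, CAF.CM and antibody. S100a8 had 4.64, 11.8, 4.11 and 2.54 CPM, and the chemokine receptor gene Cxcr2 had 0.530 CPM in control medium and 1.52 with Wnt2. Listed genes reached 1.00 CPM in at least 1 library of this pair, which Cxcr2 did only with Wnt2. It could therefore be listed only as higher, and its direction is not read. Ms4a4a was higher than control with both Wnt2 and CAF.CM, whereas Mmp8 was higher than control with Wnt2 alone, at log2 ratios of 1.45 (Wnt2) and -1.96 (CAF.CM). The part of such cells in the Wnt2 values was not tested.

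Of 10 T cell markers, 6 were listed, and Cd3d, Cd3e, Cd4 and Bcl11b were in no table. The summed level of the 6 was 15.4 CPM in control medium, 10.8 with Wnt2 and 6.83 in CAF.CM, where Ms4a4b differed from control by less than counting error. Cd3g, Trac, Lat and Cd8a were below 1.00 CPM in CAF.CM, so they could be listed there only as lower than control. With the antibody only Lck and Cd2 had a value. The kinase gene Lck had 2.17, 1.57, 2.88 and 3.36 CPM and the adhesion gene Cd2 had 1.32, 1.70, 1.07 and 0.733 CPM. The part of T cells in the Ms4a4b values was not tested.

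Of 6 natural killer cell markers, 3 were listed. Gzma had 1.17, 1.04, 5.18 and 2.15 CPM, whereas Klrb1c had 1.29, 0.358 and 0.346 CPM and Klrd1 had 1.31, 0.592 and 0.999 CPM in control, Wnt2 and CAF.CM. Klrb1c and Klrd1 reached 1.00 CPM only in control medium, so they could be listed against it only as lower, and their direction is not read. Of 7 B cell markers 0 were listed, Ms4a1 included, and 7 of 10 mast cell and basophil markers were not, Ms4a2 included. Of 10 fibroblast markers 4 were in no table, Col1a1 among them. A CAF.CM ratio was present for 4, of which 1 was higher (6.68% over all genes) and 1 lower (8.69%). The proteoglycan gene Dcn had 0.509, 1.01, 10.7 and 13.9 CPM, whereas Postn had 4.51, 1.22 and 0.691 CPM in control, Wnt2 and CAF.CM. In that pair Dcn was listed only through CAF.CM and Postn only through control, so their directions were fixed and are not read. Col1a2 and Col3a1 had no CAF.CM value.

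Interferon-stimulated genes, which viral signals and interferons switch on, were higher with CAF.CM in 24 of 29 listed genes (6.68% over all genes), with a median of 2.00 against -0.04. With the antibody against CAF.CM, 15 of 29 were lower (3.65% over all genes) and 0 higher, with a median of -1.08 against -0.04. With Wnt2 0 were higher and 8 lower (2.93% over all genes), with a median of -0.28 against -0.02. Ifit2 had 5.50, 2.30, 62.3 and 13.8 CPM, and Irf7, a transcription factor gene of this response, had 9.73, 11.1, 129 and 87.5 CPM. Ms4a4c was at 5.31 with CAF.CM and -1.35 with the antibody, Ifit2 at 3.50 and -2.17, and Irf7 at 3.73 and -0.56. Both contrasts entered the choice of Ms4a4c, so no likeness is read from these ratios.

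Genes nearest to Ms4a4c were sought by the distance between their log2 ratios for CAF.CM and for the antibody, over 11052 protein-coding genes with at least 200 reads. These are the contrasts that entered the choice, so the list is a description only. Ifi205, an interferon-inducible gene of the Ifi200 family, was closest (distance 0.266), with 0.360 CPM in control medium, 12.7 with CAF.CM and 4.96 with the antibody. Ly6a, which encodes the surface protein Sca-1 and had a Wnt2 ratio of 1.77, followed at 0.588, with 2.64, 87.1 and 49.0 CPM. Enpp2 (0.794), which encodes autotaxin, RP23-468J15 (0.891) and Ly6i (0.996) came next, and RP23-468J15 had 1 read in control medium. For Ms4a6d the measure took all 3 ratios over 11007 genes, and the nearest were Mgst1 (0.0487), Kiss1r (0.111), Zfp61 (0.140), Gypc (0.143) and Bbs1 (0.155). Mgst1, a microsomal glutathione transferase gene, had 145 CPM in control medium, 204 with Wnt2, 229 in CAF.CM and 149.8 with the antibody.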

How the data were processed

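Ribosome-depleted total RNA, 1 ug per sample, went into stranded libraries, per the labels' protocols. Per the submitters' processing notes, STAR 2.4.2a, RSEM 1.2.29 and edgeR were used, and the builds GRCm38.p5 and mm10 appear there. Their settings, their order and any use of strand were not given in the sources used here. Per the file headers, library columns hold CPM normalized by the authors, in 1 table per comparison. Libraries present in 2 tables had identical values (12954 of 12954 genes for control medium, 12848 of 12848 for CAF.CM), so values were compared across tables. The log2 fold changes deposited by the authors served as an alternative. Their log2 mean CPM and their deposited p-values are not used here, because 1 library per group shows no spread between replicates.

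CPM values were whole multiples of 1 step per library, within 0.1 step for 100.00% of values, and reads were recovered from these steps (0.00706, 0.00651, 0.0384 and 0.0431 CPM per read in control, Wnt2, CAF.CM and antibody). No count test was made on them for the same reason. Log2 ratios used the library sizes these steps imply and a prior count of 2 scaled as in edgeR. The software was Python 3.11.15, numpy 2.4.6, scipy 1.17.1, pandas 2.3.3 and matplotlib 3.10.9. The code was tested on simulated data. GENCODE M21 matched 99.82% of listed genes. Alternatives were DESeq2 1.42.0 size factors and edgeR 4.0.16 TMM factors (R 4.3.3), total reads, prior counts of 0.5 and 5, a minimum of 100 reads, the deposited log2 fold changes and a 1.5-fold threshold.

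Named genes are the members, their listed relatives, at most 4 genes per list with the largest ratio and at least 200 reads, and the 5 nearest genes of Ms4a4c and Ms4a6d. That rule asked for 3 ratios. Ms4a4c has 2, so its nearest genes were taken over those, and some of them are not listed with Wnt2. Malat1, AW112010, BE692007, Gm8369 and cell type markers beyond 4 per list or named as not listed were named after values were seen. The members and lists were chosen with earlier results of these data known.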

Additional observations from a re-analysis of the deposited data

How the results depend on the processing

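Each comparison rests on 1 library per group, so no replicate could be left out. No paired analysis was possible because each group has 1 library. Of 206 member ratios under other scalings, prior counts, filters or the authors' deposited log2 fold changes, 203 stayed within the counting interval, and 0 crossed the 2-fold line. The others concern Ms4a6d, at 0.67 for CAF.CM against control with total reads, and at 0.06 for antibody against control with DESeq2 size factors and with recomputed TMM factors. Other scalings moved the median of all genes by at most 0.08.

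A 1.5-fold threshold counted 968 higher and 1049 lower genes for Wnt2, 1838 and 2387 with CAF.CM, 575 and 1400 with the antibody against CAF.CM, and 2247 and 3079 with the antibody against control. At that threshold 2 members, Ms4a7 and Ms4a8a, were lower with CAF.CM. Ms4a8a was listed in that pair only through its control value, so it could only be lower. With at least 100 reads, 55 genes were higher and 293 lower with the antibody against CAF.CM, and 3 members were lower, since Ms4a4b and Ms4a7 had fewer reads. Ms4a4c has no Wnt2 ratio, so its nearest genes were taken over 2 ratios, a choice made after seeing the data. The planned version over 4 libraries was not run. Genes with few reads, Ms4a4b, Ms4a7 and Ms4a8a in the antibody library with 14, 18 and 26, have the widest intervals.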
